A study of Mus musculus with 2 samples.

Results

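The complement cascade was examined through 9 genes of the 32285 features in each matrix: the proteases C1ra and C1s1, the components C4b, C2, C3 and Cfb, the inhibitor Serping1, and the receptors C3ar1 and C5ar1. They were selected by name with earlier results of these data in view, so their levels are given as a description. Single-cell RNA-Seq was performed on cells of the mitral valve from 12-week-old mice on a C57BL/6J background, with 1 library per genotype. The WT library came from Fbn1+/+ littermates, and the mgR library came from Fbn1 mgR/mgR mice, which carry a hypomorphic germline allele of the fibrillin-1 gene on both chromosomes. The labels do not say how many animals a library held, a legend of the study gives n = 3 for this assay without saying of what, and cells carried no label of the animal they came from. With 1 library on each side no test of a genotype difference was possible, and all intervals are 95% intervals that cover counting error only.

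Complement is a proteolytic cascade of plasma and tissue fluid that marks particles for uptake and releases small peptides that call leukocytes. In the classical pathway C1q binds its target and activates the proteases C1r and C1s, which cleave C4 and C2 to form an enzyme that cleaves C3. In the alternative pathway factor B takes the place of C2. The released fragments of C3 and C5 act on receptors of myeloid cells, and much of the circulating protein comes from the liver, while fibroblasts and macrophages make components locally.

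After filtering, the WT library held 875 cells with a median of 5033 unique molecular identifiers (UMIs, 1 per captured RNA molecule), and the mgR library held 3438 cells with a median of 7370. The 2 libraries shared 0 barcodes. Cells were assigned by summed UMIs of a few genes: fibroblasts by Col1a2, Col3a1 and Dcn (at least 10), macrophages by Cd68, Csf1r and Adgre1 (at least 3) and endothelium by Pecam1 and Cdh5 (at least 2). Cells past exactly 1 of these gates numbered 322 WT and 875 mgR fibroblasts, 237 and 1580 macrophages, and 28 and 150 endothelial cells. The classes differed in the level of markers that the gates did not use. The 10 further fibroblast markers summed to 24863 CPM (UMIs per 1000000 UMIs of the class) in WT and 33572 in mgR fibroblasts, against 72.8 and 73.5 in macrophages, and the 10 further macrophage markers summed to 27224 and 34367 in macrophages, against 40.9 and 174 in fibroblasts. Fbn1, the targeted gene, was at a level of 171 in WT fibroblasts and 136 in mgR fibroblasts (UMIs per 1000000), a ratio of 0.79 (0.69 to 0.91). The share of fibroblasts with an Fbn1 UMI, without correction for depth, was 47.8% and 47.3%. The study describes Fbn1 mRNA as severely reduced in homozygous mgR mice, a larger drop than seen here. The reason was not tested. The methods of the study state that experimental comparisons used male mice, yet in the WT library 28.1% of cells held Xist UMIs and no Y-linked UMI and 38.5% held the reverse, against 60.8% and 21.1% in the mgR library.

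Levels are UMIs of a gene per 1000000 UMIs of the cells of a class (CPM), and a gene was called between libraries where its level differed by at least 1.5-fold and its UMIs numbered at least 20 over both libraries. The 9 genes divided between the cell types. Transcripts of the proteases, of C3 and of the inhibitor lay mostly in fibroblasts, those of both receptors lay mostly in macrophages, and C4b, C2 and Cfb were found in both. In fibroblasts Cfb was the 1 of 7 measurable members that was called higher in mgR, where 9.62% of all genes were. In macrophages 5 of 8 members were called higher, where 17.2% of all genes were, and C4b, Cfb and C3 among them had intervals above 1.

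**Figure D1:**
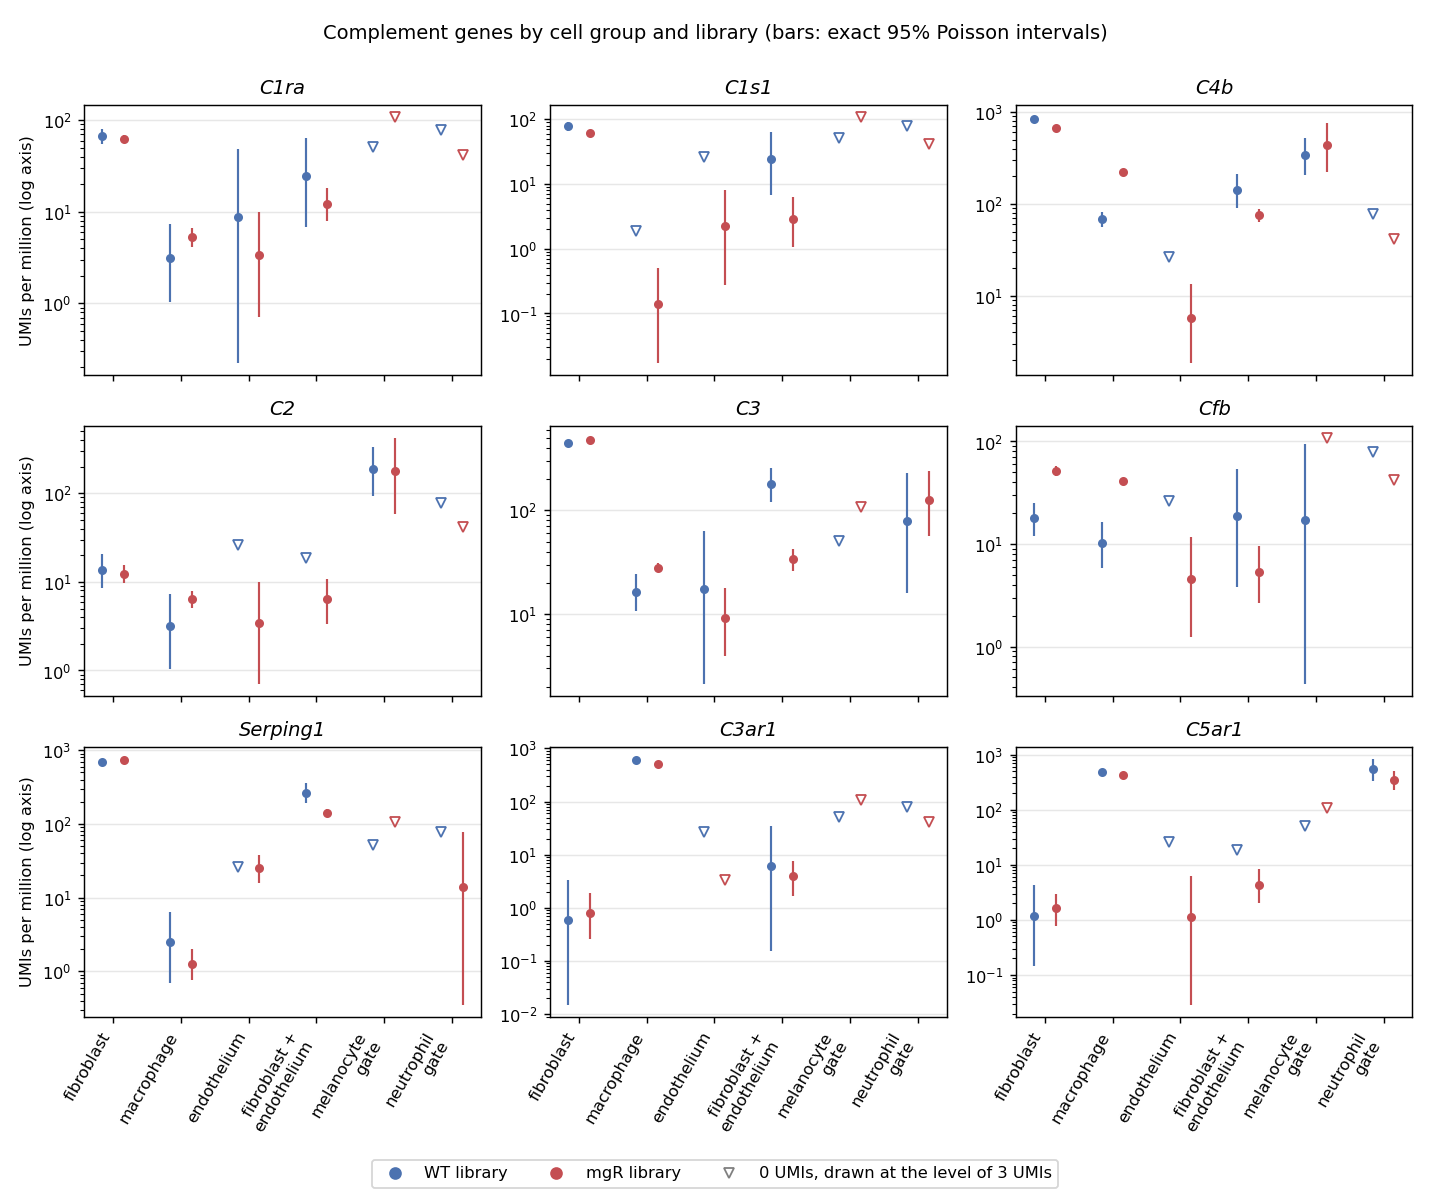
Level of each complement gene in 6 groups of cells, in CPM on a log axis, for the WT and the mgR library, with exact Poisson intervals as bars and groups without a UMI drawn as open triangles at the level of 3 UMIs. C1ra, C1s1, C3 and Serping1 are highest in fibroblasts, C3ar1 is highest in macrophages, C5ar1 is high in macrophages and neutrophil-gate cells, and C2 is highest in melanocyte-gate cells.

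C1ra and C1s1, whose proteins are the paired proteases of the C1 complex, lie tail to tail on chromosome 6 of GRCm38 (C1ra, chr6:124512405-124523443, plus strand, and C1s1, chr6:124530345-124542359, minus strand) with 6901 bases between them. In fibroblasts C1ra was at 66.9 CPM in WT (55.1 to 80.4) and 63.1 in mgR (57.0 to 69.7), a ratio of 0.94 (0.76 to 1.17). C1s1 was at 78.2 (65.4 to 92.7) and 61.2 (55.1 to 67.7), a ratio of 0.78 (0.64 to 0.96). Neither was called, and the intervals of both levels overlapped between the libraries. Fibroblasts held 97.1% of the C1s1 UMIs of WT and 94.2% of those of mgR. In macrophages C1s1 had 0 UMIs in WT, which allows a level of up to 1.90 CPM, and 2 UMIs in mgR. C1ra behaved less strictly, with 5 UMIs in WT macrophages and 75 in mgR macrophages, or 3.16 and 5.29 CPM, and the ratio of 1.67 had an interval of 0.68 to 5.29.

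C4b encodes the C4 protein that the C1 proteases cleave (chr17:34728380-34743882, minus strand). It was at 831 CPM in WT fibroblasts (788 to 876) and 672 in mgR fibroblasts (652 to 693), a ratio of 0.81 (0.76 to 0.86). In macrophages the order was reversed, with 68.4 in WT (56.1 to 82.5) and 223 in mgR (215 to 231), a ratio of 3.26 (2.69 to 3.98). The WT value rested on 108 UMIs in 38 cells and the mgR value on 3158 UMIs in 664 cells. Fibroblasts thus held 89.4% of the C4b UMIs of the WT library but 53.7% of those of the mgR library, while macrophages held 6.88% and 41.1%. The 3% of macrophages with the most C4b UMIs, 8 WT and 48 mgR cells, held 55.6% and 22.5% of them, and without these cells the log2 ratio was 2.50 in place of 1.70. Among cells with Xist UMIs alone the ratio was 0.82 in fibroblasts and 4.23 in macrophages, and among those with Y-linked UMIs and no Xist it was 0.77 and 2.69. The near-identical gene C4a lies 65209 bases away on the same strand, and 20.2% of the 90-base windows in the last 500 bases of the C4b transcript occur in C4a as well. C4a received 3 UMIs in WT and 13 in mgR over all cells kept, so nearly all counted reads of the pair were assigned to C4b, although reads that fit both genes could not be divided.

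The C4b signal in macrophages was compared with that of transcripts made by fibroblasts, since free RNA in the cell suspension gives UMIs to every cell. C4b in macrophages was at 8.22% of its fibroblast level in WT and 33.1% in mgR. Serping1, with a fibroblast level of the same order, was at 0.368% and 0.171%, and the matrix gene Dcn was at 0.101% and 0.129%. The 10 fibroblast markers summed to 72.8 CPM in WT macrophages and 73.5 in mgR macrophages, with 1 and 0 of them at 0, and the 3 gate genes summed to 22.2 and 28.1. Among the 136 WT and 750 mgR macrophages with 0 UMIs of any of these 13 genes, C4b was at 59.2 and 225 CPM, a ratio of 3.80 (2.89 to 5.10).

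C2 supplies the catalytic subunit of the classical enzyme (chr17:34862604-34898265, minus strand) and was sparse. Its level in fibroblasts was 13.6 CPM in WT (8.63 to 20.4) and 12.4 in mgR (9.77 to 15.5), a ratio of 0.91 (0.56 to 1.52). In macrophages 5 WT UMIs and 90 mgR UMIs gave a ratio of 2.0 with an interval of 0.83 to 6.32, and thinning of the cells or use of the Xist cells alone turned it to 0.78 and 0.86. A difference of C2 between the libraries was therefore not resolved at this depth in either class. The highest C2 levels were in the small group of cells with at least 5 UMIs of the pigment genes Dct, Pmel, Mlana and Tyrp1 and no other gate. There, 11 UMIs in 22 WT cells gave 187 CPM (93.6 to 335) and 5 UMIs in 8 mgR cells gave 180 (58.4 to 420). Those 22 WT cells held 26.8% of all C2 UMIs of their library. These cells had C4b at 341 (208 to 526) and 432 (223 to 754), with 12 of 22 and 5 of 8 cells positive, and had 0 UMIs of C1ra, C1s1, C3, Serping1, C3ar1 and C5ar1 in both libraries.

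C3 encodes the central component on which all pathways converge (chr17:57203970-57228136, minus strand). In fibroblasts it was at 444 CPM in WT (412 to 476) and 479 in mgR (462 to 497), a ratio of 1.08 (1.0 to 1.17), with no call. The share of fibroblasts with a C3 UMI nevertheless differed. After every cell was thinned to 2000 UMIs it was 24.3% (19.5 to 29.7) among 292 fibroblasts of WT and 34.1% (30.9 to 37.4) among 842 of mgR, and the unthinned shares were 31.1% and 45.8%. The 3% of fibroblasts with the most C3 UMIs, 10 WT and 27 mgR cells, held 36.7% and 24.6% of them, and without these cells the log2 ratio was 0.37 in place of 0.11. In thinned WT cells 4.45% had more than 5 C3 UMIs and 75.7% had none, against 3.80% and 65.9% in mgR. Among cells with Xist UMIs alone the fibroblast ratio was 1.42 (1.21 to 1.68), and among cells with Y-linked UMIs alone it was 0.82 (0.73 to 0.93), on opposite sides of 1. C3 in macrophages was at 16.5 (10.7 to 24.1) and 27.9 (25.2 to 30.8), a ratio of 1.70 (1.14 to 2.63), or 3.71% and 5.83% of the fibroblast levels. Among macrophages with 0 UMIs of the 13 fibroblast genes this ratio was 1.22 (0.77 to 2.05), so the call ended there.

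The sequence before the C3 start site is shown beside those of the receptors because these genes were used by different cell types. The motifs searched on both strands of the 250 bases before the start were NF-kB (GGGNNNNNCC), the STAT site (TTCNNNGAA), a PU.1 core (GAGGAA), C/EBP (TTGCNNAA) and AP-1 (TGANTCA). Sequences are from RefSeq (GRCm38.p6), minus strand, written 5′ to 3′ towards the gene, and 5 of the 9 members were matched in that table. Capitals mark every match.
C3, chr17:57228137-57228386: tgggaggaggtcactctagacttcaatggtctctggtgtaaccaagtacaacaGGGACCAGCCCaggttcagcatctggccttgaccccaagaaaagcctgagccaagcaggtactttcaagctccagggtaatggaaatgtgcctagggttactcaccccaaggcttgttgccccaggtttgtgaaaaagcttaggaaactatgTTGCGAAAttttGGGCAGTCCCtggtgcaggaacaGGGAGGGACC
C3ar1, chr6:122856158-122856407: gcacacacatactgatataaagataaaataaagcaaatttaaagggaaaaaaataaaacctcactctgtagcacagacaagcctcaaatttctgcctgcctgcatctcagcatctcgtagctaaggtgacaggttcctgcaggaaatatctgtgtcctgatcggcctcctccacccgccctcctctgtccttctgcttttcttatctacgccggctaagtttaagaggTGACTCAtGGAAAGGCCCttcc
C5ar1, chr7:16259339-16259588: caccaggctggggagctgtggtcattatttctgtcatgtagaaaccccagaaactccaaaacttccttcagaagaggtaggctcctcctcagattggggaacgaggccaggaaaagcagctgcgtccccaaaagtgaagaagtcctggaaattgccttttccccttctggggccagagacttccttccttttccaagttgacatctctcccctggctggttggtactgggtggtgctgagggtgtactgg
The C3 window held 4 NF-kB matches, at -197, -196, -33 and -10 from the start, of which the first pair overlap each other, and 1 C/EBP match at -45. The C3ar1 window held AP-1 at -22 and NF-kB at -14, and the C5ar1 window held no match. C1ra and C1s1, also mostly in fibroblasts, were in that table too, and their sequences are not shown. C1ra held no match. C1s1 had 2 start sites, with C/EBP at -242 before the first and NF-kB at -35 before the other. Having a match thus did not divide these genes by cell type. The C5ar1 window precedes the RefSeq start, but most of it, chr7:16259339-16259540, lies inside the gene as annotated by GENCODE. Of 32851 promoter windows of this length, 45.8% held the NF-kB motif, 9.56% the C/EBP motif, 6.75% the AP-1 motif, 7.02% the STAT motif and 23.3% the PU.1 core. A match describes letters and not a bound factor, and the absence of one says only that these letters were not in the window.

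Cfb encodes factor B, the enzyme precursor of the alternative pathway (chr17:34856374-34862518, minus strand), and lies 85 bases downstream of C2 on the same strand. It was the member with the largest mgR to WT ratio in both main classes. In fibroblasts it was at 17.8 CPM in WT (12 to 25.4) and 51.1 in mgR (45.6 to 57.0), a ratio of 2.87 (1.97 to 4.33). The WT value was 30 UMIs in 13 of 322 cells, and the mgR value was 313 UMIs in 128 of 875 cells. In macrophages it was at 10.1 (5.79 to 16.5) and 40.7 (37.5 to 44.2), a ratio of 4.02 (2.46 to 7.09), from 16 and 578 UMIs. After thinning, 2.05% of WT and 7.36% of mgR fibroblasts had a Cfb UMI (unthinned 4.04% and 14.6%), and 1.29% and 5.61% of macrophages did (unthinned 5.49% and 16.6%). T cells (at least 2 UMIs of Cd3d, Cd3e and Cd3g), with 0 and 2 Cfb UMIs in 87 and 137 cells, gave the level in cells that should lack it.

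The Cfb ratio was also taken in subsets of cells. In fibroblasts the ratio was 2.79 (1.32 to 7.04) among cells with Xist UMIs alone and 3.97 (2.41 to 6.91) among cells with Y-linked UMIs alone, and in macrophages it was 2.78 (1.26 to 7.62) and 9.02 (3.79 to 28.1). Macrophage markers moved with the fibroblast value: the 10 of them summed to 40.9 CPM in WT fibroblasts, with 2 at 0, and to 174 in mgR fibroblasts, with 0 at 0. Among the 254 WT and 397 mgR fibroblasts with 0 UMIs of the 13 macrophage genes, Cfb was at 12.6 and 47.5, a ratio of 3.76 (2.23 to 6.79). The annotated read-through gene Gm20547 shares 90.8% of the 90-base windows at the 3′ end of Cfb but was not a feature of the matrices.

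Serping1 encodes the C1 inhibitor, which blocks the C1 proteases (chr2:84765387-84775444, minus strand). Fibroblasts had 687 CPM in WT (649 to 728) and 743 in mgR (721 to 764), a ratio of 1.08 (1.01 to 1.15). They held 95.7% and 90.6% of its UMIs. The share of thinned fibroblasts with a UMI was 55.8% (49.9 to 61.6) and 62.4% (59.0 to 65.6), and the unthinned shares were 71.7% and 85.8%. In macrophages only 4 and 18 UMIs were counted, and the ratio of 0.50, though past 1.5-fold, had an interval of 0.17 to 2.04. Their thinned share of 0.858% and 0.383% served as the level of free RNA. The share of Serping1 in fibroblasts was far above it in both libraries.

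C3ar1 (chr6:122847138-122856161, minus strand) and C5ar1 (chr7:16246743-16259540, minus strand) encode the receptors for the small fragments of C3 and C5, which draw and activate myeloid cells. C3ar1 was at 597 CPM in WT macrophages (559 to 636) and 501 in mgR macrophages (489 to 512), a ratio of 0.84 (0.78 to 0.90). C5ar1 was at 494 (460 to 530) and 428 (417 to 438), a ratio of 0.87 (0.80 to 0.93). Both receptors were lower in mgR in CPM by less than the fold needed for a call. Among macrophages with Xist UMIs alone the ratios were 0.92 (0.82 to 1.04) for C3ar1 and 0.97 (0.85 to 1.11) for C5ar1. Among those with Y-linked UMIs alone they were 0.76 (0.68 to 0.85) and 0.72 (0.64 to 0.81). In the shares of thinned macrophages with a UMI the libraries overlapped, with 57.5% (50.9 to 63.9) and 60.5% (58.0 to 63.0) for C3ar1 and 55.4% (48.7 to 61.9) and 53.4% (50.9 to 55.9) for C5ar1. The unthinned shares were 81.0% and 88.2% for C3ar1 and 77.6% and 86.2% for C5ar1. In fibroblasts these shares were between 0.342% and 0.594%, and only 1 and 5 C3ar1 UMIs and 2 and 10 C5ar1 UMIs were counted. Cells past a neutrophil gate (Csf3r, Cxcr2 and Retnlg, at least 3 UMIs) separated the receptors. C5ar1 was there at 548 (339 to 837) in 15 WT cells and 347 (225 to 513) in 32 mgR cells, whereas C3ar1 had 0 UMIs in both, which allows up to 78.2 and 41.7 CPM.

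**Figure D2:**
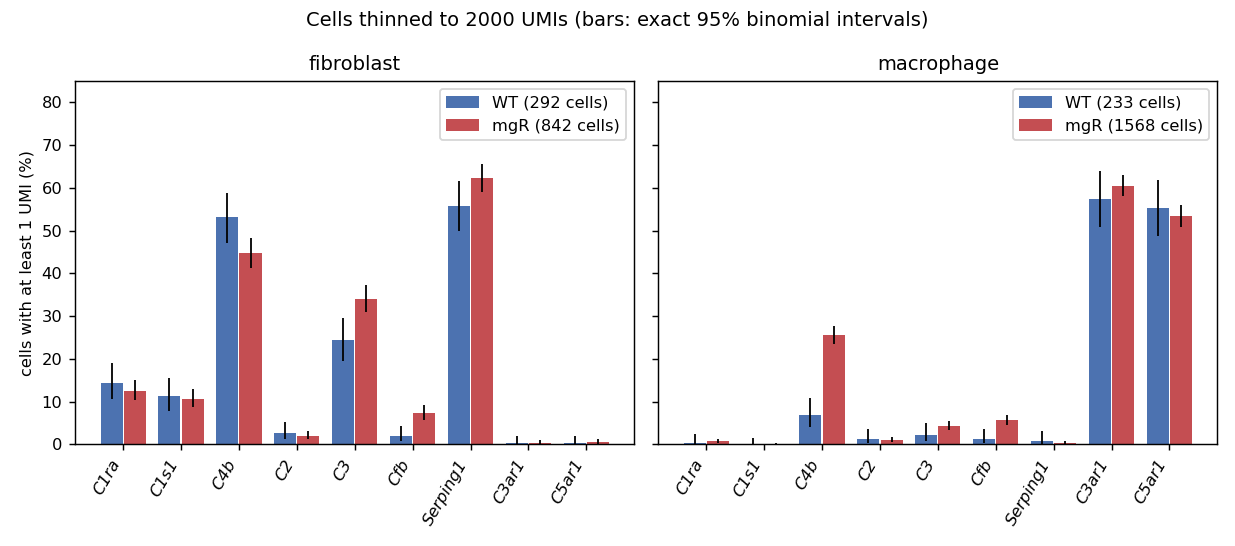
Percent of fibroblasts and of macrophages with at least 1 UMI of each complement gene after every cell was thinned to 2000 UMIs, with exact binomial intervals. Among macrophages the C4b share is 6.87% in WT and 25.6% in mgR, while the shares of C3ar1 and C5ar1 lie between 53.4% and 60.5% in both libraries.

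The counts of called members were set beside those of all genes. In fibroblasts 7 of the 9 had at least 20 UMIs, of which 1 was higher and 0 were lower in mgR by 1.5-fold, where 9.62% of 11338 genes were higher and 9.97% were lower. Their median log2 ratio was -0.08, beside -0.04 over all genes. In macrophages 8 had at least 20 UMIs, of which 5 were higher (C4b, Cfb, C3, C2 and C1ra) and 1 was lower (Serping1), where 17.2% of 11059 genes were higher and 9.32% were lower. Their median log2 ratio was 0.75, beside 0.11 over all genes, and 3 of the 5 had intervals above 1. C4b thus stood on opposite sides of 1 in the classes, at a log2 ratio of -0.31 in fibroblasts and 1.70 in macrophages.

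**Figure D3:**
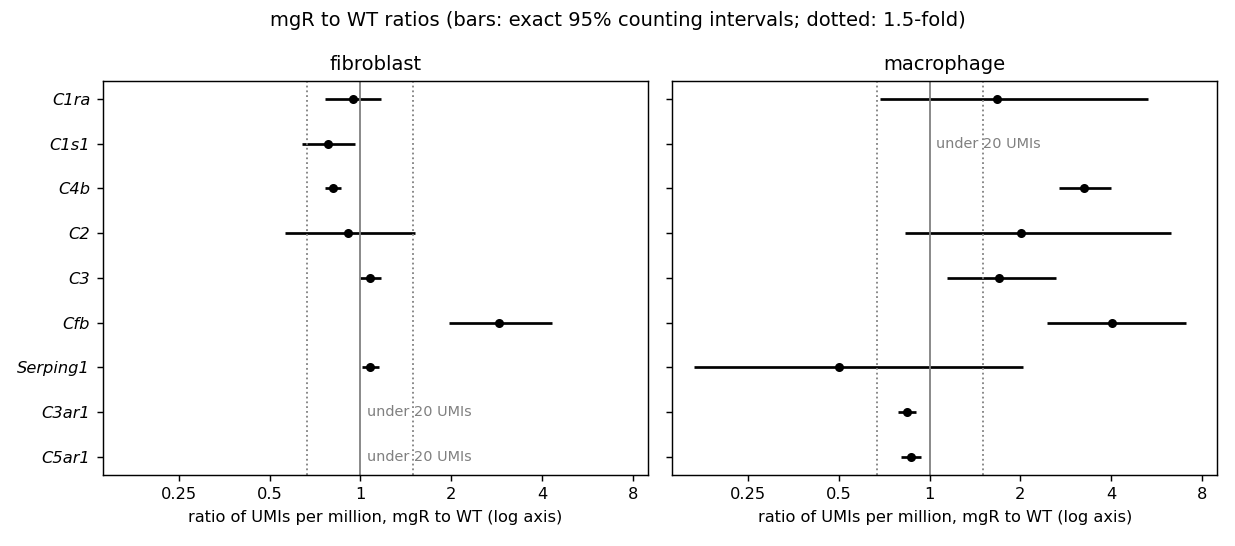
Ratio of CPM, mgR to WT, on a log axis for each complement gene in fibroblasts and in macrophages, with exact conditional binomial intervals as bars and dotted lines at 1.5-fold. Cfb is right of the line in both classes, C4b is left of 1 in fibroblasts at 0.81 and right of the line in macrophages at 3.26, and the receptors lie just left of 1 in macrophages.

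Cells past the endothelial gate alone had little of any member. In the 28 WT and 150 mgR cells that passed only this gate, 1 member reached 20 UMIs, Serping1, with 0 UMIs in WT, which allows 26.3 CPM, and 25 CPM in mgR (15.7 to 37.9). No member was called, where 20% of 6334 genes were higher and 17.8% were lower. Of the 60 WT and 478 mgR cells past the endothelial gate, 28 and 303 also passed the fibroblast gate and no other. Whether these are doublets or cells that use both programs cannot be told apart from the gates and was not tested. The 10 endothelial markers that the gate did not use summed to 3513 and 4498 CPM in them. In cells past the endothelial gate alone they summed to 2881 and 2888. The median depth of cells past both gates was 5515 and 5852 UMIs, against 5182 and 6722 in fibroblasts and 4336.5 and 5302 in endothelial cells. In the cells past both gates 4 members had at least 20 UMIs and all 4 were lower in mgR by 1.5-fold, where 18.8% of 8504 genes were higher and 19.9% were lower. C3 was at 180 CPM in WT (120 to 258) and 33.6 in mgR (26.2 to 42.6), a ratio of 0.19 (0.12 to 0.30), but the 29 WT UMIs came from 5 cells. C4b went from 143 to 75.0, a ratio of 0.53 (0.34 to 0.86), with its 23 WT UMIs in 6 cells. Serping1 went from 266 to 143, a ratio of 0.54 (0.39 to 0.76). The remaining member, C1ra, had only 4 WT and 25 mgR UMIs. Its ratio of 0.49 had an interval of 0.17 to 1.94. The 3 fibroblast gate genes went from 9863 to 7675 CPM and the 10 further fibroblast markers from 6524 to 7395. Among the 10, Mgp (3798 to 5565) and Fstl1 (297 to 369) rose. All the others fell, such as Bgn (1041 to 641), Lum (626 to 465) and Col1a1 (204 to 92.6). The part of these markers in the result was not tested.

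Within macrophages the cells were divided by summed UMIs of Lyve1, Folr2, Cd163 and Timd4, markers of tissue-resident macrophages, after thinning. Cells with 0 of these UMIs were 62.2% of WT and 37.9% of mgR macrophages, and cells with 3 or more were 25.8% and 45.5%. C4b followed this division in both libraries. Its level in WT was 1.02 CPM in cells with 0 (1 UMI in 145 cells), 76.3 in cells with 1 to 2 and 225 in cells with 3 or more. In mgR it was 27.0, 182 and 396. When cells were divided by their UMIs at full depth instead, which left 133 WT and 453 mgR cells with 0 in place of 145 and 594, the WT levels were 1.17, 0 (0 UMIs in 20 cells) and 181, and the mgR levels were 12.6, 56.4 and 336. Within the cells with 3 or more the ratio was 1.76 (1.43 to 2.19), and within those with 1 to 2 it was 2.38 (1.41 to 4.40), both below the 3.26 of all macrophages. In cells with 0 the single WT UMI gave a ratio of 26.3 with an interval of 4.65 to 1046. The share of marker-positive cells and the level of C4b within each bin therefore both differed between the libraries. At the edges of the bins, 18 WT and 99 mgR cells had exactly 3 UMIs, and 9 and 128 had exactly 2.

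Cfb was less tied to these markers in mgR, at 28.1, 27.6 and 55.7 CPM in the 3 bins, than C4b was. In WT it had 2, 1 and 13 UMIs in the bins, and only the last allowed a narrow ratio, 1.78 (1.03 to 3.37). Both receptors were lower in mgR in each bin, by point estimate. C3ar1 was at 510, 796 and 720 in WT and at 376, 551 and 585 in mgR, with ratios of 0.74 (0.67 to 0.81), 0.69 (0.58 to 0.83) and 0.81 (0.72 to 0.92). C5ar1 was at 426, 518 and 635 in WT and at 327, 463 and 496 in mgR, and its ratio in the middle bin, 0.89, had an interval of 0.72 to 1.12.

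**Figure D4:**
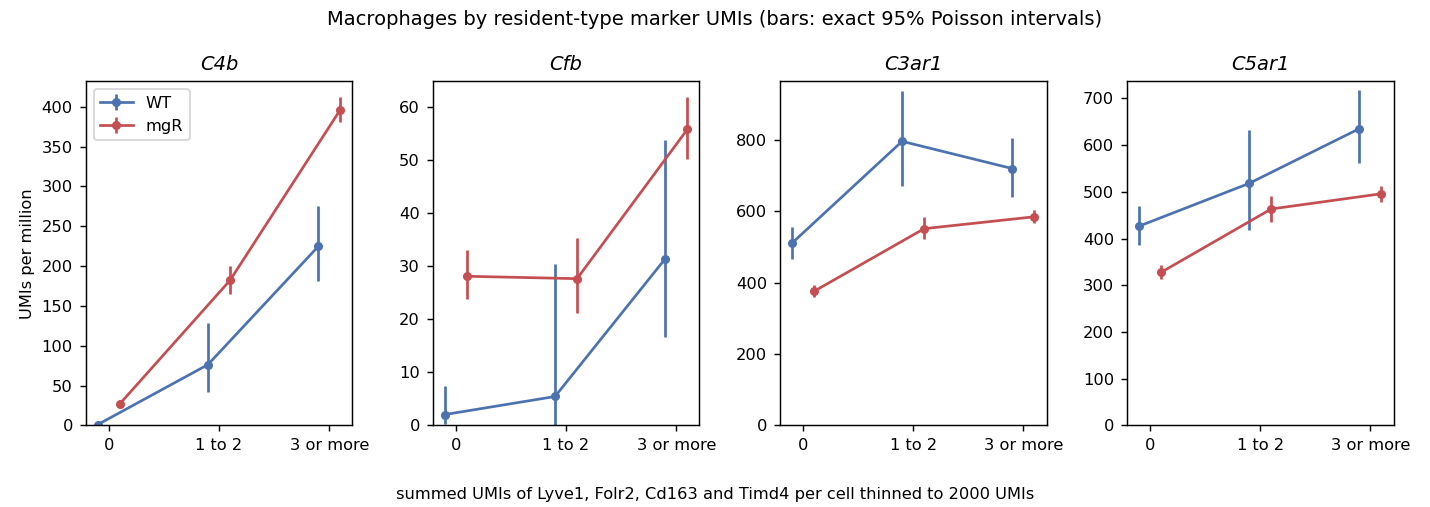
CPM of C4b, Cfb, C3ar1 and C5ar1 in macrophages of the WT and mgR libraries, by the summed UMIs of Lyve1, Folr2, Cd163 and Timd4 in each thinned cell, with exact Poisson intervals. C4b climbs across the bins in both libraries, from 1.02 to 225 in WT and from 27.0 to 396 in mgR, and mgR is below WT for both receptors in every bin.

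Fibroblasts were divided in the same way by Pi16, Dpp4, Clec3b and Cd34, taken as markers of adventitial-type fibroblasts. Cd34 gave most of these UMIs, 619 in WT and 2424 in mgR fibroblasts at full depth. Clec3b gave 246 and 1062, Pi16 141 and 763, and Dpp4 1 and 2. Pi16 was higher in cells past the endothelial gate alone (176 and 271 CPM) than in fibroblasts (83.5 and 124). The bins thus mainly rank cells by Cd34, and an adventitial identity was not tested. Cells with 3 or more UMIs were 13.4% of WT and 17.1% of mgR fibroblasts. C4b was lowest there, at 351 CPM in WT (276 to 440) and 477 in mgR (436 to 520), against 889 and 743 in cells with 0. In that bin the ratio was 1.36 (1.06 to 1.76), on the other side of 1 from the 0.84 (0.77 to 0.91) of cells with 0. This did not hold at full depth, where the bin of 3 or more had a ratio of 0.87 (0.80 to 0.96) and that of 0 a ratio of 0.90 (0.79 to 1.03). Serping1 went the other way along the bins, from 569 to 828 in WT and from 675 to 865 in mgR. C3 went from 310 to 533 in WT and from 387 to 709 in mgR. Cfb was higher in mgR in all 3 bins, with ratios of 2.45 (1.45 to 4.40), 3.39 (1.72 to 7.61) and 3.38 (1.26 to 12.8). At full depth the ratio in cells with 0 was 1.39 (0.70 to 2.93), short of a call, from 12 WT and 35 mgR UMIs.

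**Figure D5:**
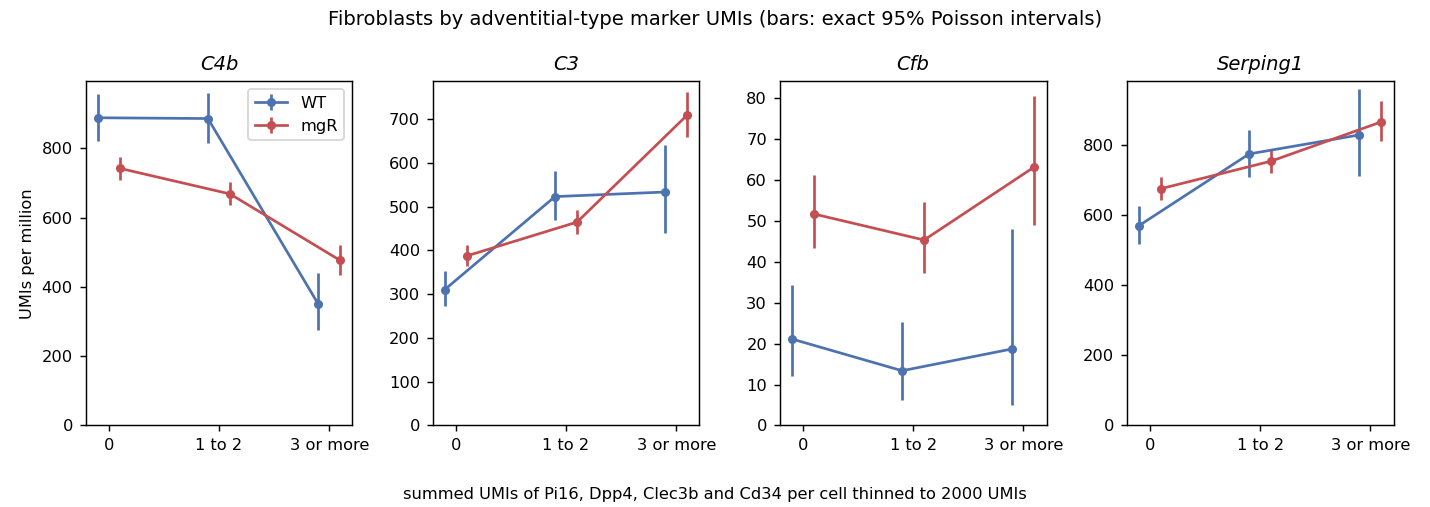
CPM of C4b, C3, Cfb and Serping1 in fibroblasts of the WT and mgR libraries, by the summed UMIs of Pi16, Dpp4, Clec3b and Cd34 in each thinned cell, with exact Poisson intervals. C4b is lowest and Serping1 is highest in cells with 3 or more, and the mgR value of Cfb is above the WT value in each bin.

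The genes whose counts varied most like those of each member across cells included other members. The measure was Pearson's r of ln(1 + UMIs) in thinned cells, over 292 WT and 842 mgR fibroblasts, with genes ranked by the lower of the 2 libraries. It describes cells that share a library, and zeros weigh heavily on it. C4b was most like C3 (r = 0.55 in WT and 0.47 in mgR), Gas6, Serping1, Mmp3 and Cp. C3 and Serping1 gave 0.55 and 0.45. C1ra was most like C4b (0.39 and 0.29), followed by Ogn, Gas6, C3 and Serping1, and C1s1 was most like C3 (0.24 and 0.26), followed by C4b, Mmp3, Adamts1 and Serping1. Cfb, found in under 5% of thinned WT fibroblasts, had weak values, led by Gas6 (0.21 and 0.19). Gas6, the ligand of the TAM receptors, and Mmp3, a matrix metalloproteinase, each stood in the leading 5 of several members.

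In macrophages, over 233 WT and 1568 mgR cells, C3ar1 was most like C1qa (0.30 and 0.23), Selenop, Ifi207, C1qc and C1qb. C5ar1 was most like the chemokine gene Cxcl2 (0.26 and 0.23), C1qa, the cytokine gene Tnf, C1qc and C3ar1. C4b in macrophages, looked at after its values were seen, was most like Ccl6 (0.37 and 0.36), Folr2, F13a1, Lyve1 and Vsig4. The lists beside C4b differed between the classes, with C3 and Serping1 in that of fibroblasts and Folr2 and Lyve1 in that of macrophages. Only genes with UMIs in at least 5% of the thinned cells of each library of a class were ranked. In macrophages C3 (2.15% and 4.27%) and Serping1 (0.858% and 0.383%) fell below this limit, as did Folr2 and Lyve1 in fibroblasts. The limit thus fixed this difference in advance.

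The other complement genes, a list of 43, gave the rest of the cascade. In macrophages 20 of them had at least 20 UMIs, of which 7 were higher and 2 were lower in mgR by 1.5-fold, beside 17.2% and 9.32% of all genes. Some of the 7 rested on 1 WT UMI, with intervals that included a ratio of 1. The C1q chains, which recognise the target, were at high levels in macrophages of both libraries: C1qa went from 4092 to 5884 CPM, a ratio of 1.44 (1.40 to 1.48), and C1qb and C1qc had ratios of 1.21 and 1.30. The ficolin gene Fcna, a recognition lectin, went from 65.8 to 219, a ratio of 3.32 (2.73 to 4.08). C6, a component of the membrane attack complex, had 4 UMIs in WT and 317 in mgR, a ratio of 8.83 (3.41 to 32.6). Vsig4, a macrophage receptor for C3 fragments, went from 112 to 253, a ratio of 2.25 (1.94 to 2.64). The genes lower in mgR were C5ar2, the second receptor for the C5 fragment, at 34.2 and 17.8 (0.52, 0.39 to 0.71), and Itgax, a subunit of complement receptor 4, at 46.8 and 26.6 (0.57, 0.44 to 0.74). The Itgax ratio was 0.31 (0.22 to 0.44) among cells with Xist UMIs alone and 0.92 (0.58 to 1.54) among those with Y-linked UMIs alone, where its call ended. Fcna, C6 and Vsig4 lay mostly in the cells with 3 or more resident marker UMIs, where their ratios were 2.14 (1.71 to 2.70), 5.69 (1.93 to 27.8) and 1.51 (1.27 to 1.80). At full depth the Vsig4 ratio of these cells was 1.31 (1.13 to 1.54), short of a call.

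In fibroblasts 16 of the 43 had at least 20 UMIs, of which 7 were higher and 0 were lower by 1.5-fold, beside 9.62% and 9.97% of all genes. Only 4 of the 7 had intervals above 1. C1qc had one of 0.95 to 4.84, and the sparsest of the 7 rested on 2 WT UMIs. The C1q chains were 3 of those higher, at 4.74 to 7.11 CPM in WT and 9.46 to 24.3 in mgR. These chains are themselves among the 10 macrophage markers summed above. The others of the 10 were also all higher in mgR fibroblasts, such as Lyz2 (15.4 to 82.4) and Tyrobp (2.96 to 19.1). Clu, which encodes clusterin, an inhibitor of the membrane attack complex, went from 311 to 578, a ratio of 1.86 (1.70 to 2.04). Among cells with Y-linked UMIs alone the Clu ratio was 0.99 and among those with Xist UMIs alone it was 1.63.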

How the data were processed

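Single-cell RNA-Seq with the 10x Genomics 3' version 3 chemistry was performed by the authors on viable sorted cells after digestion of mitral valves with collagenase A and elastase. The deposited values are counts of UMIs per gene and barcode, made with Cell Ranger 7.1.0 on mm10 per the submitters' processing notes. Whether intronic reads were counted was not given in the sources used here. The matrices held 1104 WT and 3802 mgR barcodes with 5381844 and 28215539 UMIs. As in the study, cells with 200 to 5000 genes and at most 10% mitochondrial UMIs were kept. This left out 229 and 364 barcodes. No doublet caller was run, and the 34 WT and 352 mgR cells past more than 1 gate were set apart.

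Counts were summed per class and library and divided by the class total (CPM, UMIs per 1000000). Exact Poisson intervals were used for levels, exact Clopper-Pearson intervals for shares and exact conditional binomial intervals for ratios (scipy 1.17.1). Intervals cover counting error only, and a count of 0 was taken to allow 3 UMIs. With 1 library per genotype no test was run, and a call means a ratio past 1.5-fold with at least 20 UMIs. The ratio script was checked on simulated counts. For shares and bins each cell was thinned to 2000 UMIs. The members and gene lists were chosen with earlier results of these data known. Named were all members, complement genes with at least 20 UMIs (1 is not reported here), the gate and marker genes, and, for members with many UMIs, the 5 genes of highest correlation. Positions are from GENCODE M21 (GRCm38), matched by gene identifier, and promoters from RefSeq (GRCm38.p6). The alternatives were other gates, filters, scalings and depths, and cells split by sex-linked UMIs. Cells with 0 UMIs of the other class's markers, and cells without the 3% with the most UMIs of a gene, were alternatives chosen after seeing the data.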

Additional observations from a re-analysis of the deposited data

Results flagged for a closer look

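The difference in C4b between the libraries had opposite directions in the 2 main classes. The log2 ratio of mgR to WT was 1.70 in macrophages (108 and 3158 UMIs) and -0.31 in fibroblasts (1404 and 4122 UMIs), with both counting intervals away from 0, so the ratios lay 2.01 apart on the log2 scale. The difference between the classes was not tested, since each genotype had 1 library.

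C3 in fibroblasts had opposite directions in cells of different sex-linked transcripts. It was at 348 and 494 CPM in the 81 WT and 522 mgR cells with Xist UMIs alone, and at 561 and 459 in the 144 WT and 211 mgR cells with Y-linked UMIs alone. The log2 ratios of 0.51 and -0.29 lay 0.80 apart, and this difference was not tested. The 2 WT sets differed from each other by more than the 2 mgR sets did.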

How the results depend on the processing

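In the following, Xist-only and Y-only cells are those with UMIs of Xist and no Y-linked gene, and the reverse. No paired analysis was possible because there was 1 library per genotype. Of the 157 alternative values of the members' log2 ratios, 15 had the opposite sign to the main value, 11 of them for ratios that were not called, such as C3 in fibroblasts, at -0.21 with every cell past the gate, -0.29 in Y-only cells and -0.10 in cells with 0 UMIs of the macrophage genes. The 4 for called ratios were C2 in macrophages, at -0.36 with cells thinned to 2000 UMIs and -0.21 in Xist-only cells, C1ra in macrophages, at -0.29 without the 3% of cells with the most UMIs, and Serping1 in macrophages, at 1.07 with every cell past the gate. Within the bins, dividing unthinned cells changed the sign of 13 of 51 values. Of these, 3 were past 1.5-fold when thinned: C1s1 in fibroblasts with 3 or more marker UMIs, which went to -0.19, and C3 and Vsig4 in macrophages with 1 to 2, which went to 0.30 and 2.39. C4b in fibroblasts with 3 or more went from 0.44 to -0.19. The cause was not tested. C4b and Cfb in macrophages and Cfb in fibroblasts kept their direction and a size past 1.5-fold under every alternative for the whole class, with ratios of 2.69 to 7.63, 2.78 to 16.2 and 2.34 to 20.9. The highest of each came from leaving out the 10 cells with the most UMIs of the gene, a larger fraction of the smaller WT library, which left 41, 3 and 3 WT UMIs. The count of members past 1.5-fold in fibroblasts, 1, became 4 with every cell past the gate and 2 with thinned cells, without the 10 top cells, without the top 3% of cells, in Xist-only cells, in Y-only cells and in cells with 0 UMIs of the macrophage genes. The count in macrophages, 6, became 3 with thinned cells, 3 without the top 3% of cells, 2 in Xist-only cells and 3 in Y-only cells, and stayed between 4 and 6 otherwise. In endothelium the count of 0 became 2 with every cell past the gate and 1 with doubled gate thresholds. The share of all genes past 1.5-fold was not taken under these alternatives. Members with at least 20 UMIs can also be fewer in subsets of cells. These counts therefore describe the settings and are no result about the members. Without thinning, 25 of 36 shares of cells with a UMI left their interval.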

Other observations

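Members were also counted in cells outside the main classes. In the 188 mgR cells that passed no gate and were not divided further, Cfb was at 84.4 CPM (65.1 to 108), from 65 UMIs in 13 cells, while the 92 WT cells of this kind had 0 Cfb UMIs, which allows 14.3 CPM. The median depth of these cells was 2372 UMIs in mgR and 1399 in WT. In dendritic-gate cells of mgR, 17 C3 UMIs came from 3 of 114 cells and 14 Cfb UMIs came from 4, with 0 of either in 38 WT cells. C3 was counted in neutrophil-gate cells of both libraries, with 3 UMIs in 15 WT cells and 9 UMIs in 32 mgR cells, or 78.2 (16.1 to 229) and 125 (57.2 to 237) CPM.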
